A study of Mus musculus with 12 samples.

Results

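The 55 genes described here encode the mitotic kinases, the spindle, the kinetochore, the condensin complex and the proteins of cytokinesis. They were chosen by name, as genes of the mitotic machinery, and were found by an exact match of the gene symbol among the 40077 genes of the cell tables and the 34508 genes of the tumor tables. All 55 were present in both, with the same Ensembl identifier, and all 55 had enough reads to be tested in both. RNA was sequenced from Myc-CaP cells, a mouse line that was derived from a prostate tumor driven by a human MYC transgene. In culture, 3 libraries came from cells given DMSO, the solvent, and 3 from cells exposed to YJ1206 at 1 μM for 24 hours. In animals, Myc-CaP cells were grown under the skin of male FVB mice, and 3 tumor libraries came from mice given vehicle and 3 from mice given YJ1206, which the study dosed orally at 100 mg/kg, 3 times per week. YJ1206 is a proteolysis-targeting chimera that brings CDK12 and CDK13, kinases of transcription elongation, to a ubiquitin ligase. All 4 groups carry the same MYC transgene and come from this 1 line, and the FVB host has its own stroma and immune cells. The age of the mice and the number of days on treatment before the tumors were taken are not given in the sources used here.

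Mitosis is driven by CDK1 bound to A- and B-type cyclins, which CDC25 phosphatases activate, together with Polo-like and Aurora kinases. Kinetochores tie chromosomes to spindle microtubules, the spindle checkpoint holds the anaphase-promoting complex until all are attached, and that complex then destroys cyclin B and securin so that chromatids part and the cell divides. Transcripts of these genes are made late in the cell cycle under B-MYB, FOXM1 and the MuvB complex, so that their bulk level is widely read as a measure of cycling cells. In bulk RNA, fewer cells in G2 and mitosis and less RNA per such cell cannot be told apart.

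The depth was 13936984 to 18520071 counts per library in the cells and 15391684 to 26928447 in the tumors, and no member fell under 5.08 CPM (counts scaled to library size with TMM) in any library. The YJ1206 cell libraries were shallower than the DMSO libraries without overlap, and the library numbers of these groups come from separate series, so that the batch of the libraries and YJ1206 exposure cannot be told apart in the cells. In the tumors, library 3 of each group stood between libraries 1 and 2. Among genes with a mean count of at least 50 whose other libraries differed by at least 1.5-fold, vehicle library 3 lay between the others for 97.2% of 1425 genes and YJ1206 library 3 for 95.1% of 611, against 14.2% to 55.7% for the remaining tumor libraries in that position. Whether library 3 of each group is a tumor independent of libraries 1 and 2 cannot be told from these data. If it is not, the p-values from 3 tumor libraries per group rest on fewer independent tumors. Tumor results are therefore also given for libraries 1 and 2 alone. The labels do not say which mouse or culture each library came from, although the study calls its data independent biological replicates, and p-values measure only the spread between these libraries. Of the markers of prostate epithelium, Pbsn was at 0 TPM (transcript abundance per gene length) in every group and Epcam was at or near 0, while Krt19 had 145 TPM on average in DMSO cells.

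In the tumors, every mitotic gene was lower with YJ1206. Of the 55 members, 55 were lower and 0 higher at a Benjamini-Hochberg adjusted p under 0.05 (edgeR's quasi-likelihood test, 3 libraries per group), where 26.8% of the 15558 genes tested were called and 14.9% of those tested were lower. The log2 fold changes ran from -0.66 for Bub3, a 1.58-fold decrease, to -1.92 for Cenpf, a 3.77-fold decrease, with a median of -1.50 and adjusted p-values of 0.00118 to 0.0193. For 54 members the decrease was both called and 2-fold or more, as it was for 3.07% of all genes tested. All 55 members had every YJ1206 tumor below every vehicle tumor, as did 22.8% of all genes. Summed over the members, the vehicle tumors held 3651, 3390 and 3557 TPM and the YJ1206 tumors 754, 1565 and 1271 TPM. YJ1206 library 1 was the lowest of its group for 55 members and library 2 the highest for 54, with a median ratio of 2.16 between them (range 1.08 to 3.18), whereas the highest and lowest vehicle libraries differed by a median ratio of 1.10.

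With libraries 1 and 2 of each group alone, the decrease kept its size but not its call in edgeR. The median log2 fold change was -1.56 and negative for 55 of 55 members, but 0 passed the adjusted threshold (adjusted p 0.134 to 0.224, edgeR), where 0.00638% of all genes, that is 1 gene, did. At an unadjusted p under 0.05 edgeR gave 55 of 55 members and 19.6% of all genes, and DESeq2 on the same 4 libraries called 52 members lower and 0 higher, where 8.14% of all genes were called, 5.03% lower and 3.11% higher, a fit that was added after the data were seen. With each of the 6 tumor libraries left out in turn, 51 to 55 members stayed below the threshold, while the share of all genes called ran from 11.8% without YJ1206 library 3, the fit with 51 members, to 36.2% without vehicle library 2.

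**Figure D1:**
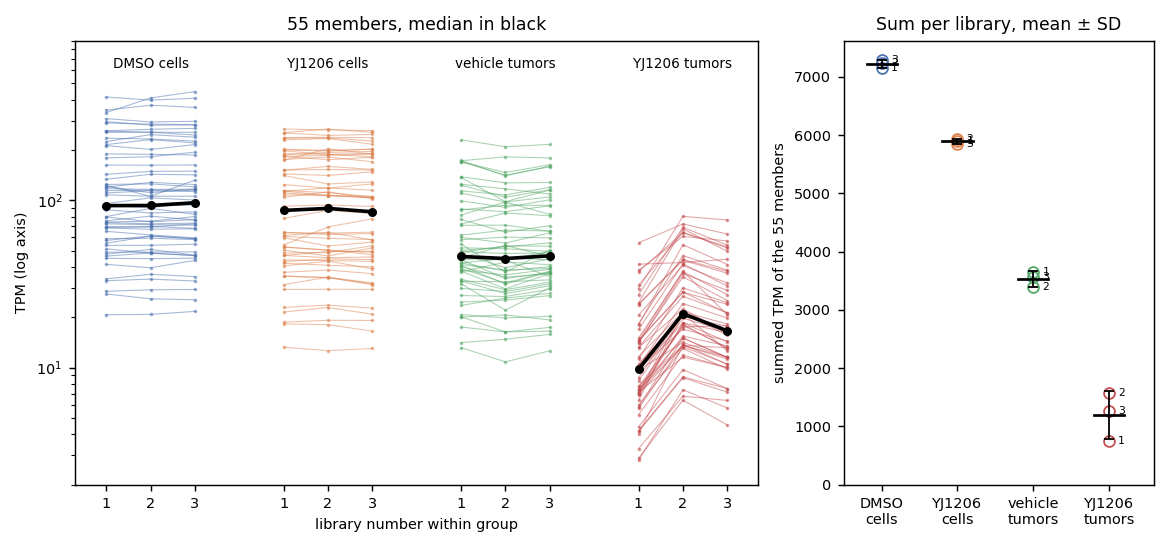
Left, TPM of each of the 55 members on a log axis in libraries 1 to 3 of each group, with the median over the members in black. Right, the TPM summed over the 55 members in each library (numbered open circles), with the mean ± SD of 3 libraries: 7224 ± 70.4 in DMSO cells, 5891 ± 43.6 in YJ1206 cells, 3533 ± 132 in vehicle tumors and 1197 ± 410.0 in YJ1206 tumors.

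Markers of other cells moved between the tumor groups as well. Skeletal muscle markers summed to 865, 101 and 551 TPM in the vehicle tumors and 63.7, 73.6 and 78.0 TPM in the YJ1206 tumors, with 6 of the 6 tested lower. Leukocyte markers summed to 173, 373 and 252 TPM with vehicle and 429, 471 and 458 TPM with YJ1206, with 0 of 6 called. Most of this sum was Cd52, with a mean of 183 TPM with vehicle and 360 TPM with YJ1206. Tyrobp had means of 33.2 and 38.8 TPM and Laptm5 of 22.1 and 21.1 TPM, and Ptprc, Coro1a and Cd53 were slightly higher with YJ1206. Of the lists for single immune cell types, 3 of 7 macrophage genes were called higher with YJ1206, and 1 of 4 neutrophil genes was called lower. Of the 3 T cell genes tested, 1 (Cd8a) was called higher, with means of 2.26 TPM with vehicle and 3.64 TPM with YJ1206. Cd4 had means of 0.55 and 0.57 TPM, while Cd3d (6.53 and 5.56 TPM), Cd3e, Cd3g and Cd2 had lower means with YJ1206. T cell markers summed to between 9.24 and 12.4 TPM with vehicle and between 9.65 and 11.4 TPM with YJ1206, groups that overlapped. Macrophage markers summed to 254, 182 and 217 TPM with vehicle and 248, 332 and 292 TPM with YJ1206, groups that overlapped, and neutrophil markers to 28.0, 21.0 and 28.1 against 11.8, 15.2 and 17.4 TPM, without overlap. Of the stromal lists, 1 of 6 endothelial genes was called higher, and fibroblast markers summed to 745, 239 and 542 against 169, 371 and 300 TPM, with 1 of 8 called lower. Epithelial markers summed to 424, 557 and 478 TPM with vehicle and 532, 500 and 523 TPM with YJ1206, with 0 of 7 tested lower and 1 higher. Vehicle library 2 held the least muscle and fibroblast RNA of its group. The part of the other cell types in the decrease of the mitotic genes was not tested.

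In cultured cells the same genes moved both ways, and for each member but Cdc25b the log2 fold change was nearer to 0 than in tumors. At the same threshold, 25 members were higher, 22 lower and 8 not called with YJ1206, where 76.1% of the 11826 genes tested were called, 37.8% higher and 38.3% lower. The share of members called is close to that of all genes. Their log2 fold changes ran from -1.37 for Cdc25b to 0.94 for Kif20a with a median of 0.060, against -0.017 over all genes, and 50 members had groups that did not overlap, as did 77.5% of all genes, 38.4% upwards. The direction of many small changes differed with total counts alone, and with log2(TPM + 1), which besides the scaling has another unit, test (limma) and filter. Against the TMM median of -0.017, the median of all genes shifted to -0.204 with total counts alone and to -0.258 on the log2(TPM + 1) scale, and the members' median to -0.24 on the latter. With total counts 14 members were higher and 31 lower, where 77.7% of all genes were called, 28.0% higher and 49.7% lower, and with log2(TPM + 1) 11 were higher and 39 lower, where 20.5% and 49.5% of all genes were. Summed over the members, TPM was 7147, 7240 and 7285 in DMSO cells and 5899, 5930 and 5844 in YJ1206 cells, without overlap, while summed CPM with TMM ran from 11840 to 12000 and from 11980 to 12110. The 22 members lower under TMM were lower under all 3 scalings, 11 were higher under all 3 (Ccnb2, Plk1, Aurka, Aurkb, Cdca8, Bub3, Nuf2, Kif20a, Kif2c, Racgap1 and Ncapd2), and 9 of the 25 that were higher under TMM were lower on the log2(TPM + 1) scale.

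**Figure D2:**
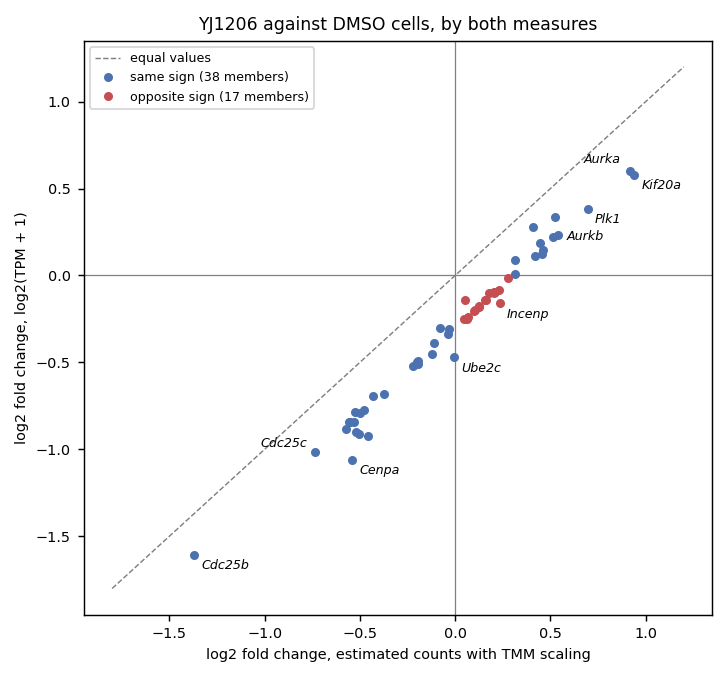
Each point is 1 of the 55 members in YJ1206 against DMSO cells, with its log2 fold change from estimated counts with TMM scaling on the x axis and from log2(TPM + 1) on the y axis, and the dashed line marks equal values. All points lie below the line, and the 17 members in red change sign between these measures.

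The effect of YJ1206 differed between tumors and cells for nearly all members. In a fit over all 12 libraries, the effect in tumors minus that in cells was negative and called for 54 members, where 46.8% of the 15328 genes tested were called and 26.0% were negative. The count was 51 with total counts alone, where 48.6% of all genes were called, and 52 with tumor libraries 1 and 2 of each group, where 22.6% were called negative and 16.2% positive. The median difference was -1.47 on the log2 scale, and the most negative was that of Kif20a (-2.43, a 5.40-fold difference, edgeR adjusted p = 8.3e-06). Cdc25b was not called, with a difference of 0.085 and an adjusted p of 0.829 (edgeR). Of the members lower in tumors, 25 were higher in cells, 22 were lower in both, and 8 were not called in cells (Ttk, Birc5, Cdc20, Ube2c, Ndc80, Spc25, Kif4 and Nusap1), counts that hold for TMM scaling only. Dose, route, exposure time and the RNA type named in the labels all differ between the experiments, and their parts in the difference cannot be told apart.

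**Figure D3:**
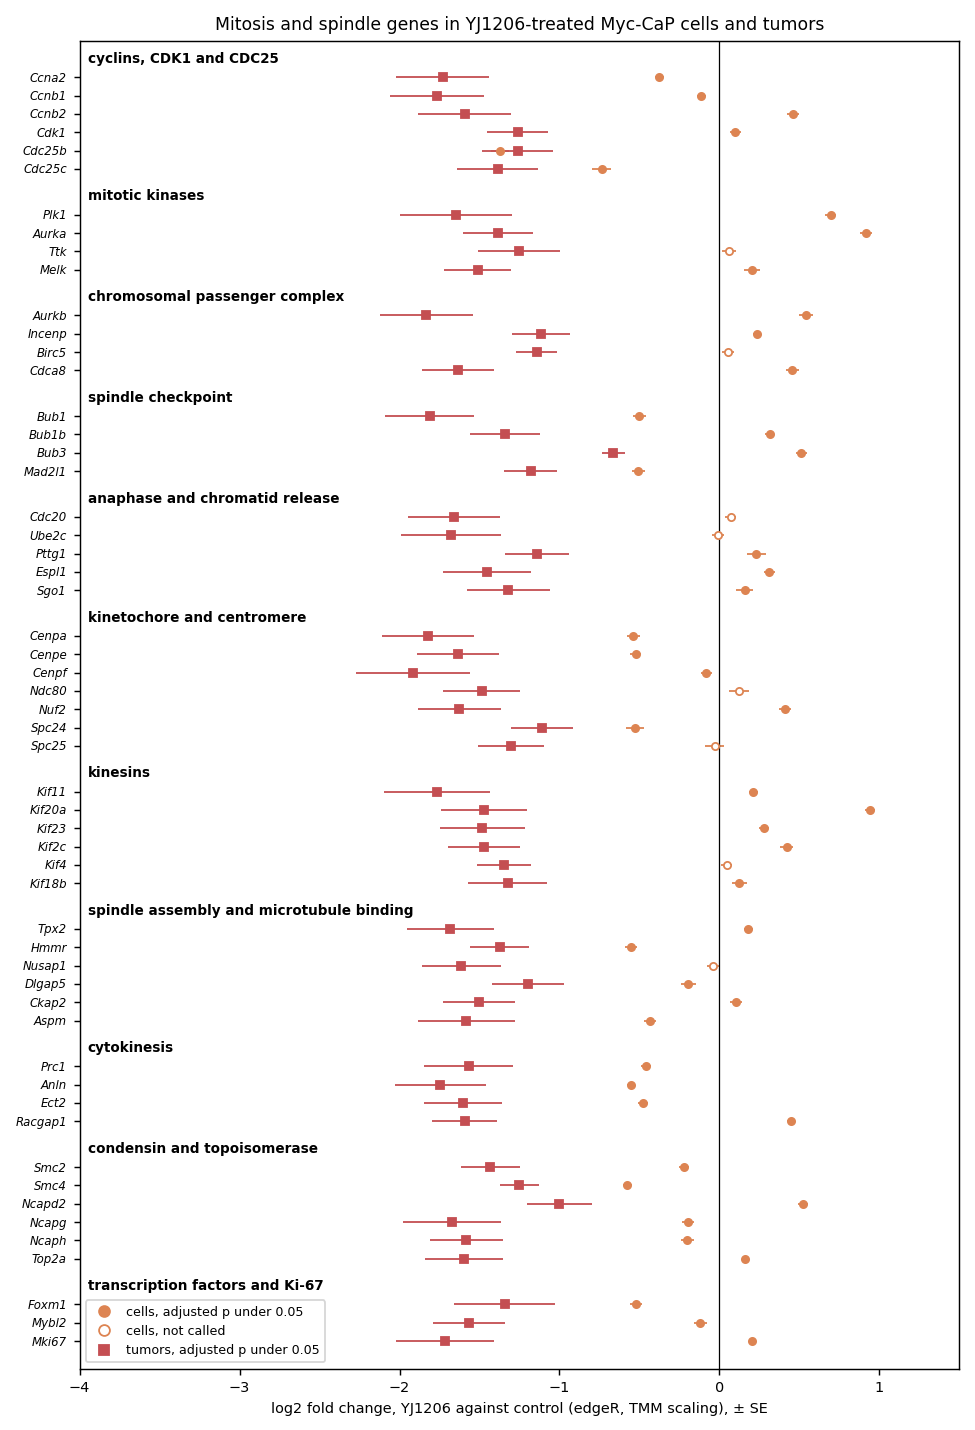
Log2 fold change of each member with YJ1206, with its standard error (edgeR, TMM scaling, 3 libraries per group), in cells (circles, open where not called) and in tumors (squares), grouped by sub-complex. The squares lie between -1.92 and -0.66 and the circles between -1.37 and 0.94, on both sides of 0.

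The promoters of these genes share sequence features, which are shown because all members moved the same way in the tumors. RefSeq promoters (GRCm38.p6, 250 bases before to 50 after a gene's start) were found for 45 members, 48 promoters in all, and for 32851 promoters over all genes. The cell cycle homology region, or CHR, was searched as TTTGAA or TTCGAA on both strands, and the CCAAT box as CCAAT on both strands. From 100 bases before to 50 after the start, the CHR letters were in 70.8% of the member promoters and 8.59% of all promoters. Over the whole window 77.1% of member promoters held CCAAT and 47.9% held it at least 2 times, against 37.4% and 11.7% of all, and 72.9% held CHR and CCAAT letters together, against 7.52%. The E2F letters TTTGGCGC or TTTCGCGC were in 4.17% of member promoters and 0.813% of all. A match is a description of the letters and not evidence of a site in use. In the 250 bases before the start of Cdk1 and of Cdc20, printed 5′ to 3′ in the direction of the gene with CHR, CCAAT (or its reverse complement ATTGG) and E2F letters in capitals, CHR letters begin at -71 and -15 for Cdk1 and at -18 for Cdc20, counted from 0 at the start base, and the CCAAT letters at -208, -80 and -48 for Cdk1 and at -53 and -8 for Cdc20.
Cdk1, chr10:69352913-69353162, minus strand: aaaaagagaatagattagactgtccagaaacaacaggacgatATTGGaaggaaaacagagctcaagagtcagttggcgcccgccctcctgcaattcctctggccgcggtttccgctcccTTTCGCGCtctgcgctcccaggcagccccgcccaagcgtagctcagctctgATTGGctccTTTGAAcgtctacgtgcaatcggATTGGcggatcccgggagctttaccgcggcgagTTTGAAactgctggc
Cdc20, chr4:118437344-118437593, minus strand: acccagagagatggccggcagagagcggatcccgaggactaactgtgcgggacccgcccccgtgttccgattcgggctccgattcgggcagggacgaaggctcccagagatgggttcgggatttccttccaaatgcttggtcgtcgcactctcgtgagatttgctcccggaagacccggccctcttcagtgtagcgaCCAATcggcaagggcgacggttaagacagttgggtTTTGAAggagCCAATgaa

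Windows of 30 bases are given for 8 further members, each cut around 1 match of the CHR letters, which is in capitals. These members were chosen among those with CHR letters near the start, so the letters recur by choice, and only the flanks are free to vary. They were taken from sub-complexes that went up and down in cells and down in tumors.
Ccnb2, chr9:70421533-70421562, minus strand: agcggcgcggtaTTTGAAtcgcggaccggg
Plk1, chr7:122159453-122159482, plus strand: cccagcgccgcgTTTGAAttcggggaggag
Aurka, chr2:172370521-172370550, minus strand: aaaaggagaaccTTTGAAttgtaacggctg
Bub1, chr2:127831828-127831857, minus strand: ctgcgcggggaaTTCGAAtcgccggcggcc
Cenpa, chr5:30666890-30666919, plus strand: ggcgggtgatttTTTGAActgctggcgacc
Cenpf, chr1:189688067-189688096, minus strand: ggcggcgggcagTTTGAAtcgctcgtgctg
Anln, chr9:22389161-22389190, minus strand: tgaaattcaaatTTTGAAcggccgtggtag
Kif23, chr9:61946780-61946809, minus strand: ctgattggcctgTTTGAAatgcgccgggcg

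In Bub1 the letters in capitals are TTCGAA, and in the other windows TTTGAA on the strand of the gene. The Anln window also holds a match on the opposite strand, ttcaaa, left in lower case. The 32 members with CHR letters near the start had a median log2 fold change of -1.58 in tumors, with 32 lower, and the 13 without had -1.51, with 13 lower. In cells the medians were 0.085 and 0.052 (TMM), with 15 higher and 11 lower of the 32 and 6 higher and 5 lower of the 13. Of all genes tested, 14.9% were called lower in tumors, and 37.8% higher and 38.3% lower in cells. The 10 members with no promoter entry were Incenp, Kif20a, Dlgap5, Spc24, Cdc25c, Ccna2, Foxm1, Aurkb, Smc4 and Tpx2.

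**Figure D4:**
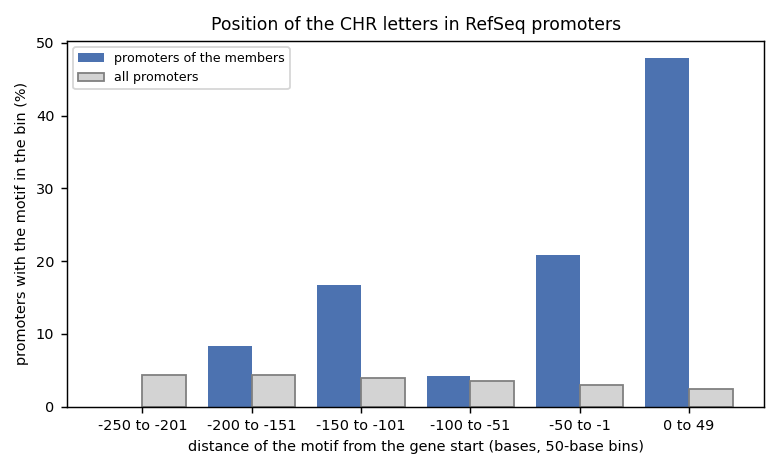
Share of promoters whose CHR letters begin in each 50-base bin, by distance from the gene start in bases, for the 48 member promoters and all 32851 promoters. In the bin just after the start the share was 47.9% for the members and 2.46% for all promoters, and in the bin farthest upstream 0 of 48 and 4.40%.

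For the counts by sub-complex here and below, the shares of all genes tested in tumors were 14.9% called lower and 11.9% higher. In cells with TMM they were 37.8% higher and 38.3% lower, so the small counts in cells say little about a sub-complex. Among the cyclins, CDK1 and the CDC25 phosphatases that activate it, 6 of 6 were lower in tumors, and in cells 2 were higher with TMM and 4 lower. Cdk1 (ENSMUSG00000019942.13, chr10:69335146-69352938, minus strand, here and below GENCODE vM21 on GRCm38), the kinase that starts mitosis, was the most abundant of them by TPM. It measured 188, 191 and 187 CPM in the DMSO cells and 204, 199.7 and 203 CPM in the YJ1206 cells, a rise of 1.07-fold without overlap (log2 fold change 0.10, standard error 0.032, edgeR adjusted p = 0.00662) that turned to -0.086 with total counts alone and -0.21 on the log2(TPM + 1) scale. In the tumors Cdk1 measured 93.7, 90.5 and 93.5 CPM with vehicle and 26.9, 49.2 and 39.5 CPM with YJ1206 (log2 fold change -1.26, standard error 0.19, edgeR adjusted p = 0.00425). The vehicle tumors were tightly grouped and each YJ1206 tumor lay well below them. Cdc25b (ENSMUSG00000027330.16, chr2:131186949-131198497, plus strand), the phosphatase that acts at the centrosome before mitosis, had the largest change of all members in cells. It fell from 70.5, 67.6 and 74.1 CPM to 27.8, 26.6 and 27.8 CPM, by 2.58-fold (log2 fold change -1.37, standard error 0.057, edgeR adjusted p = 5.24e-18). In the tumors it measured 56, 40.7 and 53.5 CPM with vehicle and 14.4, 26.3 and 21.8 CPM with YJ1206 (log2 fold change -1.26, standard error 0.22, edgeR adjusted p = 0.00683). The effect in tumors minus that in cells was 0.085 on the log2 scale with a standard error of 0.241. Ccnb1, cyclin B1, measured 108, 114 and 109 CPM in the vehicle tumors and 17.2, 44.9 and 34.9 CPM in the YJ1206 tumors (log2 fold change -1.77, standard error 0.29, edgeR adjusted p = 0.00579), while in cells it went from 312, 305 and 302 CPM to 285, 282 and 283 CPM (log2 fold change -0.11, standard error 0.029, edgeR adjusted p = 0.000932). Cyclin B2 went the other way in cells, with a log2 fold change of 0.46 for Ccnb2, while the cyclin A2 gene Ccna2 and the phosphatase gene Cdc25c were lower there (-0.37 and -0.74), and all 3 were lower in tumors (-1.59, -1.73 and -1.39).

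Of the mitotic kinases 4 of 4 were lower in tumors, and in cells 3 were higher with TMM and Ttk was not called. Plk1 (ENSMUSG00000030867.7, chr7:122159439-122169873, plus strand), the Polo-like kinase of centrosome maturation and mitotic entry, measured 171, 178 and 177 CPM in DMSO cells and 274, 285 and 293 CPM in YJ1206 cells (log2 fold change 0.70, standard error 0.033, edgeR adjusted p = 1.11e-16). In the vehicle tumors it measured 60.8, 69.5 and 66.8 CPM and in the YJ1206 tumors 9.28, 29.1 and 24.3 CPM (log2 fold change -1.65, standard error 0.35, edgeR adjusted p = 0.0138). Every treated culture was above every control, every treated tumor below every control, and the difference of the effects was -2.36 on the log2 scale (edgeR adjusted p = 7.05e-05). Aurka (ENSMUSG00000027496.15, chr2:172356190-172370535, minus strand), Aurora A, which builds the spindle poles, rose from 94.8, 103 and 98.4 CPM to 184, 187 and 188 CPM in cells, 1.89-fold (log2 fold change 0.92, standard error 0.038, edgeR adjusted p = 4.07e-18), and was higher under every scaling tried. In tumors it measured 46, 49.2 and 46.4 CPM with vehicle and 11.6, 22.9 and 19.6 CPM with YJ1206 (log2 fold change -1.39, standard error 0.22, edgeR adjusted p = 0.00491). Melk, a kinase of proliferating cells, had a log2 fold change of 0.20 in cells (TMM; -0.10 on the log2(TPM + 1) scale) and -1.51 in tumors, and Ttk, the checkpoint kinase MPS1, 0.06 (edgeR adjusted p = 0.23) and -1.25.

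The chromosomal passenger complex, which corrects faulty attachments and later directs cytokinesis, had 4 of 4 members lower in tumors, and in cells 3 higher with TMM and Birc5 not called. Its kinase Aurkb, Aurora B (ENSMUSG00000020897.12, chr11:69045647-69051664, plus strand), measured 71.1, 71.6 and 74.3 CPM in DMSO cells and 98, 109.9 and 108 CPM in YJ1206 cells (log2 fold change 0.54, standard error 0.044, edgeR adjusted p = 1.29e-11), a rise that also held with total counts and with log2(TPM + 1). In the tumors Aurkb went from 49.2, 60.5 and 50.7 CPM to 8.41, 21.3 and 15.2 CPM (log2 fold change -1.83, standard error 0.29, edgeR adjusted p = 0.00491), the largest decrease of the complex. Incenp, its scaffold and its most abundant member by TPM, measured 420.3, 428 and 419 CPM and 494, 497 and 498 CPM in the cell groups (log2 fold change 0.23, standard error 0.025, edgeR adjusted p = 3.11e-09), with no overlap but with -0.16 on the log2(TPM + 1) scale. In the tumor groups Incenp measured 206, 154 and 173 CPM and 61.4, 97.9 and 86.7 CPM (log2 fold change -1.11, standard error 0.18, edgeR adjusted p = 0.00509). Cdca8, the borealin gene, had 0.46 in cells and -1.64 in tumors, and Birc5, the survivin gene, had 0.052 (edgeR adjusted p = 0.211, TMM; negative with total counts and TPM) and -1.14.

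Of the spindle checkpoint genes, Bub3 and Bub1b were higher and Bub1 and Mad2l1 lower in cells, while 4 of 4 were lower in tumors. Bub3 (ENSMUSG00000066979.6, chr7:131560222-131571895, plus strand), the adaptor that brings the BUB kinases to kinetochores and that is also known outside mitosis, had the smallest decrease of all members in tumors. It measured 89.5, 79.8 and 83.5 CPM with vehicle and 50, 54.1 and 55.4 CPM with YJ1206 (log2 fold change -0.66, standard error 0.072, edgeR adjusted p = 0.00168), and the YJ1206 tumors lay close together. In cells Bub3 rose from 146, 145 and 142 CPM to 203, 204 and 209 CPM (log2 fold change 0.51, standard error 0.034, edgeR adjusted p = 1.17e-13). Bub1 (ENSMUSG00000027379.13, chr2:127801122-127831865, minus strand), the kinase of the centromere and the checkpoint, was lower in both materials. It measured 155, 145 and 148 CPM and 102, 107 and 107 CPM in DMSO and YJ1206 cells (log2 fold change -0.50, standard error 0.039, edgeR adjusted p = 4.37e-12) and 81, 72.8 and 74.3 CPM and 12.1, 30.1 and 22.5 CPM in vehicle and YJ1206 tumors (log2 fold change -1.81, standard error 0.28, edgeR adjusted p = 0.00445). Its relative Bub1b, the gene of BUBR1, had 0.31 in cells under TMM, near 0 on the log2(TPM + 1) scale (0.0069), and -1.34 in tumors, and Mad2l1, which inhibits CDC20, had -0.51 and -1.18.

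**Figure D5:**
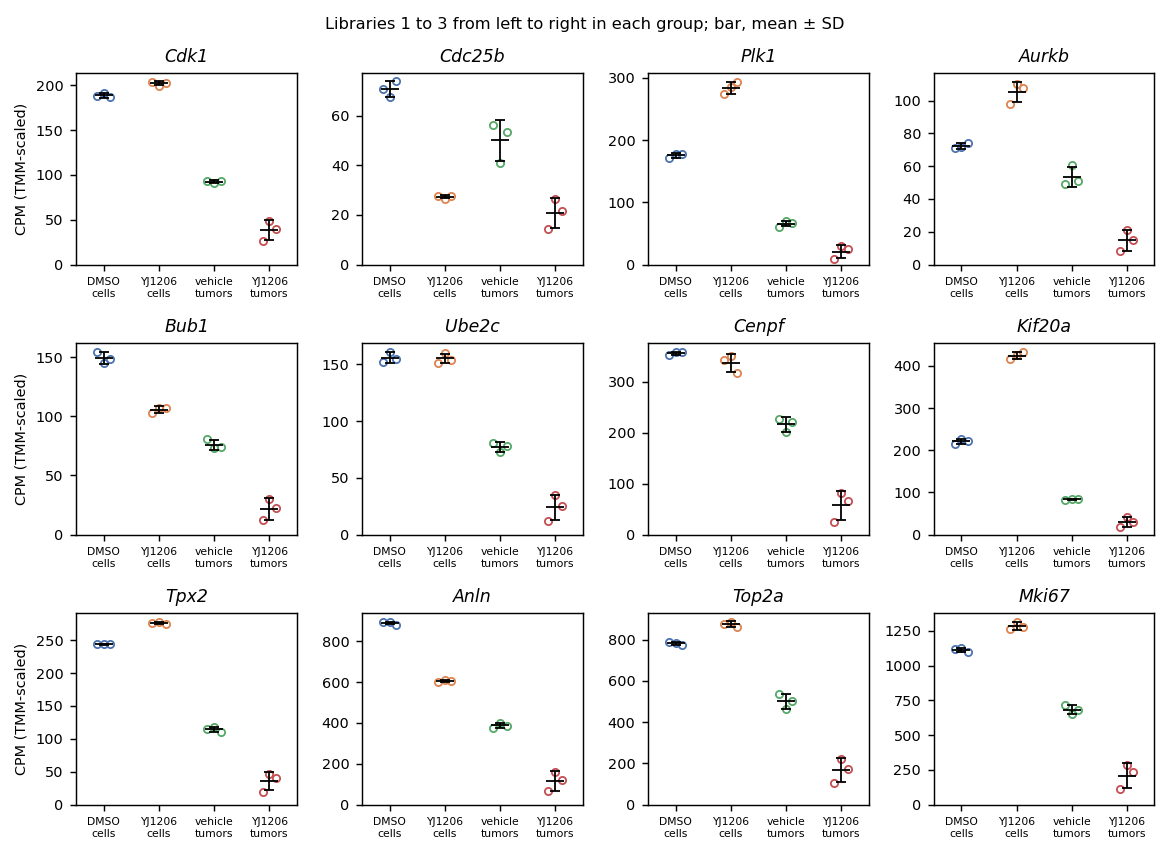
CPM (TMM-scaled, linear axis from 0, scaled within each experiment) of 12 members in each of the 12 libraries (open circles), with the mean ± SD of 3 libraries per group. Plk1, Aurkb and Kif20a are above the DMSO cells in YJ1206 cells and below the vehicle tumors in YJ1206 tumors, whereas Cdc25b, Bub1 and Anln are below the controls in both.

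Of the genes that control anaphase and the release of chromatids, 5 of 5 were lower in tumors, and in cells 3 were higher under TMM and 2 were not called. Ube2c (ENSMUSG00000001403.13, chr2:164769898-164778822, plus strand), the ubiquitin-conjugating enzyme of the anaphase-promoting complex, was the most abundant of them by TPM, with 160.1 ± 11.9 TPM in vehicle tumors and 47.2 ± 21.7 TPM in YJ1206 tumors (mean ± SD, n = 3). Its CPM was 80.7, 72.7 and 77.9 with vehicle and 12.3, 34.6 and 25.1 with YJ1206 (log2 fold change -1.68, standard error 0.31, edgeR adjusted p = 0.00853). In cells Ube2c measured 152, 161 and 155 CPM with DMSO and 152, 159.8 and 154 CPM with YJ1206, groups that overlapped (log2 fold change -0.0075, standard error 0.036, edgeR adjusted p = 0.858), although the value was -0.47 on the log2(TPM + 1) scale (limma, adjusted p = 1.78e-05). Espl1 (ENSMUSG00000058290.4, chr15:102296266-102324357, plus strand), which encodes separase, the protease that cuts cohesin, rose in cells from 159, 165 and 158 CPM to 200.2, 195 and 202 CPM (log2 fold change 0.31, standard error 0.034, edgeR adjusted p = 3.67e-09). In the tumors Espl1 went from 126, 102 and 108 CPM to 23.1, 54.1 and 45.3 CPM (log2 fold change -1.45, standard error 0.28, edgeR adjusted p = 0.009). Cdc20, the activator of the complex, had 0.07 in cells (edgeR adjusted p = 0.0721, TMM; -0.12 with total counts) and -1.66 in tumors. Pttg1, or securin, and Sgo1, or shugoshin, had 0.23 and 0.16 in cells with TMM, both negative on the log2(TPM + 1) scale, and -1.14 and -1.32 in tumors.

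The kinetochore and centromere genes held the largest decrease in tumors, with 7 of 7 lower, and in cells 1 was higher, 4 lower and 2 not called. Cenpf (ENSMUSG00000026605.14, chr1:189640606-189688086, minus strand), a large protein of the outer kinetochore, measured 227, 200.4 and 219.8 CPM in vehicle tumors and 25.4, 80.7 and 65 CPM in YJ1206 tumors (log2 fold change -1.92, standard error 0.36, edgeR adjusted p = 0.0086). YJ1206 library 1 stood far below the other YJ1206 tumors, which in turn were below every vehicle tumor. In cells it measured 352, 357 and 357 CPM with DMSO and 342, 349.5 and 316 CPM with YJ1206 (log2 fold change -0.081, standard error 0.032, edgeR adjusted p = 0.0237). Cenpa (ENSMUSG00000029177.9, chr5:30666777-30674830, plus strand), the histone H3 variant that marks centromeres, had the highest TPM of the group and fell in both materials. It went from 124, 131 and 135 CPM to 88.5, 88.2 and 91.6 CPM in cells (log2 fold change -0.54, standard error 0.041, edgeR adjusted p = 2.61e-12) and from 73.6, 75.2 and 70.6 CPM to 11, 27.8 and 23.1 CPM in tumors (log2 fold change -1.82, standard error 0.29, edgeR adjusted p = 0.00478). The NDC80 complex, the microtubule clamp of the kinetochore, had genes called both ways in cells, where 37.8% of all genes were called higher and 38.3% lower. Its subunit gene Nuf2 had a log2 fold change of 0.41 there and Spc24 -0.53, in opposite directions under every scaling tried, while Ndc80 (0.12) and Spc25 (-0.031) were not called with TMM. In tumors the 4 subunit genes ran from -1.63 for Nuf2 to -1.11 for Spc24, and Cenpe, the kinetochore kinesin, had -0.52 in cells and -1.63 in tumors.

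The mitotic kinesins, motors that slide and depolymerise microtubules, were 6 of 6 lower in tumors, and in cells 5 were higher with TMM and Kif4 was not called. Kif20a (ENSMUSG00000003779.16), the MKLP2 motor that carries Aurora B to the midzone, had the largest rise of all members in cells and the highest TPM of the kinesins. It measured 215, 227 and 221 CPM with DMSO and 416, 426 and 433 CPM with YJ1206, 1.92-fold higher (log2 fold change 0.94, standard error 0.03, edgeR adjusted p = 1.45e-20), and 0.58 on the log2(TPM + 1) scale. In the tumors it measured 82.5, 83.6 and 83.9 CPM with vehicle and 17.3, 41.7 and 30.9 CPM with YJ1206 (log2 fold change -1.47, standard error 0.27, edgeR adjusted p = 0.00788), which gave it the largest difference between the materials. Kif11 (ENSMUSG00000012443.4, chr19:37376403-37421859, plus strand), the Eg5 motor that pushes spindle poles apart, went from 159, 112 and 148 CPM to 20.9, 57.9 and 44.2 CPM in tumors (log2 fold change -1.76, standard error 0.33, edgeR adjusted p = 0.00868). Its rise in cells, from 259, 263 and 262 CPM to 299, 309 and 298 CPM (log2 fold change 0.21, standard error 0.029, edgeR adjusted p = 3.02e-07), turned to -0.093 on the log2(TPM + 1) scale. Kif2c, the depolymerase MCAK, had 0.42 in cells and -1.47 in tumors, and Kif23, the centralspindlin motor, 0.28 (TMM; -0.015 on the log2(TPM + 1) scale) and -1.48. Kif18b and the chromokinesin gene Kif4 had small values in cells, 0.12 and 0.046, which were negative with total counts and TPM, and -1.32 and -1.34 in tumors.

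Among the genes of spindle assembly and microtubule binding, 6 of 6 were lower in tumors, and in cells 2 were higher with TMM, 3 lower and Nusap1 not called. Tpx2 (ENSMUSG00000027469.16, chr2:152847964-152895321, plus strand), the activator of Aurora A, measured 114, 118 and 111 CPM in vehicle tumors and 19.8, 47.2 and 39.6 CPM in YJ1206 tumors (log2 fold change -1.68, standard error 0.27, edgeR adjusted p = 0.00528). In cells it measured 244, 244 and 244 CPM and 276, 278 and 275 CPM (log2 fold change 0.18, standard error 0.029, edgeR adjusted p = 3.75e-06), a rise that was -0.007 with total counts alone and -0.10 on the log2(TPM + 1) scale. Each YJ1206 tumor lay below each vehicle tumor, while the sign in cells rests on the scaling. Hmmr (ENSMUSG00000020330.16, chr11:40701395-40733422, minus strand), a microtubule-binding protein of the spindle poles, fell in cells from 153, 151 and 150.1 CPM to 102, 105 and 102 CPM (log2 fold change -0.55, standard error 0.037, edgeR adjusted p = 1.96e-13) and in tumors from 88.2, 86.3 and 90.2 CPM to 23.9, 42.5 and 35.6 CPM (log2 fold change -1.37, standard error 0.18, edgeR adjusted p = 0.00303). Aspm, of the spindle poles, and Dlgap5, of the kinetochore fibres, had -0.43 and -0.20 in cells and -1.58 and -1.20 in tumors. Ckap2 had 0.10 in cells (TMM; -0.20 on the log2(TPM + 1) scale) and -1.50 in tumors, and Nusap1 -0.038 (edgeR adjusted p = 0.41) and -1.61.

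Of the cytokinesis genes, 4 of 4 were lower in tumors, and in cells 3 were lower and Racgap1 was higher. Anln (ENSMUSG00000036777.8, chr9:22332012-22389188, minus strand), the anillin scaffold of the contractile ring, was the most abundant member in DMSO cells, at 407 ± 8.88 TPM (mean ± SD, n = 3), and fell in both materials. It measured 894, 894 and 882 CPM in DMSO cells and 602, 613 and 604 CPM in YJ1206 cells (log2 fold change -0.55, standard error 0.023, edgeR adjusted p = 6.8e-18), and 378, 399.6 and 388 CPM in vehicle tumors and 64.2, 161 and 122 CPM in YJ1206 tumors (log2 fold change -1.74, standard error 0.29, edgeR adjusted p = 0.00561). Racgap1 and Ect2, which encode a GTPase-activating subunit and the exchange factor that act together on RhoA, moved apart in cells, with 0.45 and -0.48 under TMM, and in the same directions with total counts and TPM. In tumors they had -1.59 and -1.60. Prc1, which bundles midzone microtubules, had -0.46 in cells and -1.57 in tumors.

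Condensin, which compacts chromosomes, and topoisomerase II alpha, which untangles them, gave 6 of 6 genes lower in tumors, and in cells 2 higher with TMM and 4 lower. Top2a (ENSMUSG00000020914.17, chr11:98992943-99024189, minus strand) had the highest TPM of them and measured 536, 464 and 503 CPM in vehicle tumors and 103, 219 and 175 CPM in YJ1206 tumors (log2 fold change -1.60, standard error 0.24, edgeR adjusted p = 0.00427). In cells it measured 789.8, 783 and 774 CPM and 878, 887 and 859 CPM (log2 fold change 0.16, standard error 0.023, edgeR adjusted p = 5.14e-07), a rise that became -0.025 with total counts alone and -0.14 on the log2(TPM + 1) scale. Every treated tumor was below every vehicle tumor, while the sign in cells rests on the scaling. Smc4 (ENSMUSG00000034349.14, chr3:69004738-69034623, plus strand), an ATPase core subunit, fell from 694, 693 and 674 CPM to 451, 473 and 461 CPM in cells (log2 fold change -0.58, standard error 0.026, edgeR adjusted p = 2.92e-17) and from 419, 341 and 389 CPM to 139, 186 and 159 CPM in tumors (log2 fold change -1.25, standard error 0.12, edgeR adjusted p = 0.00118), where it had the lowest adjusted p of all members. Ncapg went from 89.3, 72.2 and 82.4 CPM to 13.5, 35.8 and 27 CPM in tumors (log2 fold change -1.67, standard error 0.3, edgeR adjusted p = 0.0077) and from 153, 152 and 149.5 CPM to 137, 131 and 129 CPM in cells (log2 fold change -0.20, standard error 0.037, edgeR adjusted p = 2.65e-05). Condensin I had genes called both ways in cells, where 37.8% of all genes were called higher and 38.3% lower. Ncapd2 had 0.52 while Smc2 (-0.22) and Ncaph (-0.20) were lower, and each kept its sign under every scaling tried. In tumors Ncapd2, Smc2 and Ncaph had -1.001, -1.43 and -1.58.

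The regulators of this programme and Ki-67, the protein coat of mitotic chromosomes used to mark cycling cells, were 3 of 3 lower in tumors, and in cells 1 was higher with TMM and 2 lower. Mki67 (ENSMUSG00000031004.8, chr7:135689784-135716361, minus strand) measured 716, 653 and 677 CPM in vehicle tumors and 108, 283 and 231 CPM in YJ1206 tumors (log2 fold change -1.72, standard error 0.31, edgeR adjusted p = 0.00725), again with library 1 the lowest. In cells Mki67 measured 1119, 1125 and 1098 CPM with DMSO and 1261, 1317 and 1275 CPM with YJ1206 (log2 fold change 0.21, standard error 0.023, edgeR adjusted p = 4.97e-09), which was -0.10 on the log2(TPM + 1) scale. Foxm1 (ENSMUSG00000001517.14, chr6:128362967-128376146, plus strand), the transcription factor of late cell cycle genes, fell in cells from 181, 191 and 196 CPM to 133, 127 and 136 CPM (log2 fold change -0.52, standard error 0.038, edgeR adjusted p = 1.4e-12). In the tumors it went from 73.6, 60.8 and 70 CPM to 14, 39.1 and 27.2 CPM (log2 fold change -1.34, standard error 0.32, edgeR adjusted p = 0.0193), the highest adjusted p of the members. Mybl2, the gene of B-MYB, had -0.12 in cells and -1.56 in tumors.

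Levels between genes were compared by TPM only. In DMSO cells the members ran from 21.1 TPM for Sgo1 to 407 TPM for Anln, and in YJ1206 cells from 13.0 TPM for Cdc25b to 264 TPM for Racgap1. In vehicle tumors they ran from 12.2 TPM for Sgo1 to 218 TPM for Cenpa, and in YJ1206 tumors from 4.60 TPM for Sgo1 to 63.6 TPM for Smc4. CDK12 loss is known to act on long genes, so gene span was looked at as a description. The members' median span was 26.6 kb, against 21.7 kb over the genes tested in cells, and Spearman's rho between span and log2 fold change over the members was -0.11 in cells and -0.17 in tumors, against -0.049 and -0.037 over all genes tested, which share libraries and are not independent. Of the 27 members under the median span 14 were higher and 9 lower in cells with TMM, and of the other 28, 11 and 13. The shares of all genes tested there were 37.8% higher and 38.3% lower.

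Genes of the wider mitotic machinery were counted by lists, beside the same shares of all genes as above. These were 11.9% higher and 14.9% lower in tumors, and 37.8% higher and 38.3% lower in cells. Among 30 other kinetochore and centromere genes, 27 were lower and 0 higher in tumors, and 19 lower and 6 higher in cells (22 and 3 with log2(TPM + 1)). Kntc1, a subunit of the RZZ complex that recruits dynein, had the largest change in tumors, with 94.9, 82.8 and 90.7 CPM in the controls and 15.8, 36.8 and 29 CPM with YJ1206 (log2 fold change -1.71, standard error 0.26, edgeR adjusted p = 0.00444). Its partner Zwilch had the largest in cells, with 87.8, 80.6 and 83 CPM in the controls and 26.1, 27.3 and 25.3 CPM with YJ1206 (log2 fold change -1.67, standard error 0.055, edgeR adjusted p = 4.12e-20). Of 7 other mitotic kinesins, 7 were lower in tumors, and 2 were higher and 4 lower in cells. Kif20b, a motor of cytokinesis, had 55.4, 36 and 50.7 CPM in the controls and 7.54, 19.8 and 14.4 CPM with YJ1206 (log2 fold change -1.76, standard error 0.33, edgeR adjusted p = 0.0083) in tumors, and Kif24, a depolymerase of centrioles, 13.2, 12.1 and 15.3 CPM in the controls and 5.01, 4.38 and 3.54 CPM with YJ1206 (log2 fold change -1.65, standard error 0.14, edgeR adjusted p = 2.05e-11) in cells. Of the 8 subunits of augmin, which nucleates microtubules inside the spindle, 7 were lower and 0 higher in tumors, and in cells 5 were lower and 3 higher. Haus8 had 18.3, 15.3 and 16.4 CPM in the controls and 5.19, 8.82 and 7.73 CPM with YJ1206 (log2 fold change -1.20, standard error 0.19, edgeR adjusted p = 0.00525) in tumors and Haus5 29.8, 29.3 and 30.6 CPM in the controls and 14.5, 13.5 and 13.1 CPM with YJ1206 (log2 fold change -1.12, standard error 0.079, edgeR adjusted p = 5.49e-13) in cells. The 3 subunit genes of condensin II, the relative of condensin that stays in the nucleus, were lower in both materials. Ncapg2 had 97, 93.1 and 91.3 CPM in the controls and 29.2, 42.2 and 35.7 CPM with YJ1206 (log2 fold change -1.39, standard error 0.13, edgeR adjusted p = 0.00105) in tumors, and Ncaph2 286, 288 and 287 CPM in the controls and 163, 168 and 171 CPM with YJ1206 (log2 fold change -0.78, standard error 0.032, edgeR adjusted p = 3.53e-18) in cells.

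In the remaining lists smaller shares of the genes were called in tumors. Of all genes, 26.8% were called in tumors and 76.1% in cells, and the counts for the anaphase-promoting complex were close to these shares. With log2(TPM + 1), 7.73% of all genes were higher and 15.2% lower in tumors, and 20.5% and 49.5% in cells. Of 15 genes of the anaphase-promoting complex and its activator Fzr1, 4 were lower, 1 higher and 10 not called in tumors (6 lower and 0 higher with log2(TPM + 1)), and 5 were higher and 5 lower in cells (1 and 9 with log2(TPM + 1)). Anapc7, a structural subunit, had the largest change in cells, with 50.8, 52.6 and 52.9 CPM in the controls and 90.3, 86.9 and 94.8 CPM with YJ1206 (log2 fold change 0.80, standard error 0.046, edgeR adjusted p = 7.05e-15). In tumors it was Anapc13, with 33.2, 50.7 and 45.2 CPM in the controls and 61.1, 60 and 64 CPM with YJ1206 (log2 fold change 0.52, standard error 0.14, edgeR adjusted p = 0.0358), a call that was lost in 8 of 15 alternatives. Of 13 genes of cohesin, the ring that holds chromatids together, and its regulators, 9 were lower and 1 higher in tumors, and 9 higher and 3 lower in cells (3 and 6 with log2(TPM + 1)). Cdca5, or sororin, which protects cohesin in mitosis, had 29.9, 20.8 and 25.9 CPM in the controls and 5.52, 10.8 and 10.1 CPM with YJ1206 (log2 fold change -1.53, standard error 0.25, edgeR adjusted p = 0.00579) in tumors, and Esco1, an acetyltransferase of cohesin, 26.2, 25.8 and 25.6 CPM in the controls and 44.9, 44.3 and 45.9 CPM with YJ1206 (log2 fold change 0.80, standard error 0.06, edgeR adjusted p = 2.06e-12) in cells. Of 9 genes that brake CDK1 or act in mitotic exit, 4 were lower and 1 higher in tumors (5 and 0 with log2(TPM + 1)), and 5 lower and 2 higher in cells. Mastl, the Greatwall kinase that restrains the exit phosphatase, had the largest change of them in both, with 42.5, 40.8 and 42.1 CPM in the controls and 21.5, 23.1 and 21.8 CPM with YJ1206 (log2 fold change -0.92, standard error 0.065, edgeR adjusted p = 5.56e-13) in cells and 28.3, 29.9 and 29.5 CPM in the controls and 6.23, 15.2 and 11.2 CPM with YJ1206 (log2 fold change -1.42, standard error 0.27, edgeR adjusted p = 0.00946) in tumors. Of 12 genes of the MuvB and DREAM complexes, which repress or activate this programme, 8 were lower and 1 higher in tumors (6 and 0 with log2(TPM + 1)), and 4 lower and 5 higher in cells (7 and 2 with log2(TPM + 1)). Rbl1, the pocket protein p107 of DREAM, had the largest change in both, with 92.3, 92.9 and 99.1 CPM in the controls and 33.9, 35.8 and 35.8 CPM with YJ1206 (log2 fold change -1.43, standard error 0.05, edgeR adjusted p = 1.35e-19) in cells and 60.8, 53 and 59.8 CPM in the controls and 17.7, 28.9 and 27.1 CPM with YJ1206 (log2 fold change -1.23, standard error 0.17, edgeR adjusted p = 0.00343) in tumors. With tumor libraries 1 and 2 alone, edgeR called 0 genes of any of these 8 lists. Without vehicle library 3, 2 genes of the anaphase-promoting complex, 3 of brakes and exit and 5 of MuvB and DREAM were called in tumors, without YJ1206 library 3 they were 3, 3 and 5, and without YJ1206 library 1 those of the anaphase-promoting complex were 3. In these fits, in that order, 12.2%, 11.8% and 18.4% of all genes were called.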

How the data were processed

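Libraries were made by the study from total RNA after enzymatic removal of ribosomal RNA, although the cell samples are labelled as polyA RNA and the tumors as total RNA. The authors deposited, for cells and for tumors, a table of estimated counts per gene and a table of TPM per gene, and the submitters' processing notes name kallisto and GRCm38 (mm10), with no version given in the sources used here. Of the 4 tables, both kinds were used and 0 columns were left out.

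Estimated counts were rounded to whole numbers, filtered with filterByExpr, scaled with TMM and tested with the quasi-likelihood test of edgeR 4.0.16 in R 4.3.3, over all genes, with Benjamini-Hochberg adjustment at 0.05. TMM assumes that most genes do not change, which may not hold in the cells, where 76.1% of the genes tested were called. Under each scaling used, a level is relative to the other transcripts of its library. Cells and tumors were fitted apart, and the difference between them in a fit of 12 libraries over genes in both tables. The 12 samples were grouped by their labels, 3 libraries in each of 4 groups. Libraries within a group were not identical (chi-square per gene 1.94 to 2.90 in cells, 3.66 to 49.7 in tumors) and each counted once. CPM values are TMM-scaled within each experiment and are not compared between experiments. Levels between genes were compared by TPM only.

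Alternatives were total counts, upper quartile, DESeq2 1.42.0, no filter, limma 3.58.1 on log2(TPM + 1) and log2(TPM + 0.1) for genes with a mean TPM of at least 0.5, voom with sample weights for the difference, a replicate block, libraries 1 and 2 only, each library left out and, added after the data were seen, DESeq2 on libraries 1 and 2. The scripts were tested on simulated data. In each sub-complex, every library's value is given for the member with the highest mean TPM and those with the largest change in cells and in tumors. In the other lists only the genes with the largest change are named. Members, lists and this rule were chosen with earlier results of these data known, and no test of a list was made. Some marker genes are not reported here.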

Additional observations from a re-analysis of the deposited data

Results flagged for a closer look

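For 54 of the 55 members the effect of YJ1206 in tumors differed from that in cells, by the interaction term of a fit over all 12 libraries (edgeR, Benjamini-Hochberg adjusted p under 0.05). The values are the log2 fold change in tumors minus that in cells, and all 54 are negative. Their number fell to 47 with log2(TPM + 1), where 47.2% of all genes were called, 17.1% negative and 30.0% positive, to 51 with total counts alone and to 52 with tumor libraries 1 and 2 only. The last of these fits takes part of its estimate of spread from the cell libraries.

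The most negative differences, of -2 or less, were Kif20a -2.43, Aurkb -2.39, Plk1 -2.36, Aurka -2.33, Cdca8 -2.11, Ccnb2 -2.07, Racgap1 -2.07 and Nuf2 -2.05. Between -2 and -1.7 were Kif11 -1.998, Mki67 -1.95, Kif2c -1.91, Tpx2 -1.89, Cenpf -1.86, Espl1 -1.79, Top2a -1.79, Kif23 -1.78, Cdc20 -1.75 and Melk -1.74. Between -1.7 and -1.4 were Ube2c -1.69, Bub1b -1.68, Ccnb1 -1.68, Ndc80 -1.63, Ckap2 -1.63, Nusap1 -1.60, Ncapd2 -1.55, Ncapg -1.50, Sgo1 -1.50, Kif18b -1.47, Mybl2 -1.47, Kif4 -1.42 and Ncaph -1.41. Between -1.4 and -1.2 were Pttg1 -1.40, Cdk1 -1.39, Ccna2 -1.38, Incenp -1.38, Ttk -1.33, Bub1 -1.33, Cenpa -1.30, Spc25 -1.29, Smc2 -1.24, Birc5 -1.22, Anln -1.22 and Bub3 -1.20. The smallest were Aspm -1.18, Ect2 -1.15, Cenpe -1.13, Prc1 -1.13, Dlgap5 -1.02, Hmmr -0.84, Foxm1 -0.84, Smc4 -0.70, Mad2l1 -0.70, Cdc25c -0.67 and Spc24 -0.61. Foxm1, Cdc25c and Spc24 lost the call with total counts (edgeR adjusted p 0.12, 0.155 and 0.121) and with log2(TPM + 1) (limma adjusted p 0.302, 0.242 and 0.233), and held it in 3, 4 and 8 of 12 fits that left out 1 library. With log2(TPM + 1) the calls of Mad2l1, Cenpa, Prc1 and Ect2 were lost too, and with tumor libraries 1 and 2 those of Foxm1 and Cdc25c. With 3 libraries per group, no search was made for single libraries that stand apart in 1 gene.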

How the results depend on the processing

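With log2(TPM + 1), 11 members were higher and 39 lower in cells, and with log2(TPM + 0.1) again 11 and 39, against 25 and 22, and with total counts alone 14 were higher. Members whose log2 fold change in cells turned negative with log2(TPM + 1) were Cdk1 (-0.21), Ttk (-0.25), Melk (-0.10), Incenp (-0.16), Birc5 (-0.14), Cdc20 (-0.24), Pttg1 (-0.0848), Sgo1 (-0.14), Ndc80 (-0.18), Kif11 (-0.0925), Kif23 (-0.0145), Kif4 (-0.25), Kif18b (-0.18), Tpx2 (-0.10), Ckap2 (-0.20), Top2a (-0.14) and Mki67 (-0.10). With log2(TPM + 0.1) the values were Cdk1 (-0.21), Ttk (-0.25), Melk (-0.10), Incenp (-0.16), Birc5 (-0.14), Cdc20 (-0.24), Pttg1 (-0.0854), Sgo1 (-0.15), Ndc80 (-0.19), Kif11 (-0.0935), Kif23 (-0.0146), Kif4 (-0.26), Kif18b (-0.18), Tpx2 (-0.10), Ckap2 (-0.20), Top2a (-0.14) and Mki67 (-0.10). Total counts alone turned Cdk1 (-0.0865), Ttk (-0.13), Birc5 (-0.13), Cdc20 (-0.12), Sgo1 (-0.0292), Ndc80 (-0.0639), Kif4 (-0.14), Kif18b (-0.0618), Tpx2 (-0.00698), Ckap2 (-0.082) and Top2a (-0.0251), and the upper quartile turned Ttk (-0.0069), Birc5 (-0.0153) and Kif4 (-0.0212). Ube2c turned positive in DESeq2 (0.00327). On omitting 1 library, Ube2c lay between -0.029 and 0.0171 and Spc25 between -0.0725 and 0.0151, both not called with all libraries. The summed level of the members in cells, negative by TPM, was 0.013 (log2) by the sum of CPM. Without vehicle library 2 and without YJ1206 tumor library 2, the difference between the materials for Cdc25b was -0.0517 and -0.13, against 0.0848 with all libraries, and it lay between -0.13 and 0.29 over all omissions. The TPM settings differ in unit, test and filter as well as in scaling, so their changes cannot be put down to the scaling alone, and the cause of the changes was not tested.

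In the tumors, libraries 1 and 2 of each group alone gave 0 members lower and 0 calls in each of the 8 other lists in edgeR, with 2 fewer libraries, while DESeq2 on them called 52 members, 0 anaphase-promoting complex genes, 5 cohesin genes, 2 genes of brakes and exit and 3 of MuvB and DREAM. On leaving out single libraries, 23 to 26 members were higher and 21 to 22 lower in cells, 51 to 55 were lower in tumors (51 without YJ1206 library 3) and 51 to 54 differed between the materials, where 71.6% to 73.8%, 11.8% to 36.2% and 42.1% to 48.8% of all genes were called, and in tumors 2 to 6 genes were called of the anaphase-promoting complex (5 with all libraries; 2 without vehicle library 3, 3 without YJ1206 library 1 or 3), 3 to 6 of brakes and exit (5; 3 without vehicle library 3 or YJ1206 library 3) and 5 to 10 of MuvB and DREAM (9; 5 without either of these). Where a group was left with fewer libraries, they were assumed to vary like the rest. The remaining alternatives moved no count of members by over 1.5 times, and no member changed sign in the tumors under any alternative tried. 

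Replicate numbers are shared between the groups in the labels, but same-numbered libraries did not deviate together over the genes tested (correlations from -0.0289 to 0.0102 for cells, from -0.0142 to 0.000765 for tumors). The labels give only the number, and whether same-numbered samples shared a step of handling was not tested. With the replicate block 25 members were higher and 22 lower in cells, 55 were lower in tumors and 53 differed between the materials, where 75.3%, 22.3% and 44.7% of all genes were called. The lowest value of a member in any library was 5.08 CPM, and the biological coefficient of variation in edgeR was 0.0322 in cells and 0.139 in tumors.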
